A study of Mus musculus with 8 samples.

Results

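The genes described here move, oxidize, store or bind iron. They are 10 of the 19938 genes that the array could name: the ferroxidases Cp and Heph, the exporter Slc40a1, the ferritin subunits Fth1 and Ftl1, the carrier Trf and its receptor Tfrc, the importer Slc11a2, the siderophore-binding protein Lcn2 and the haem-binding protein Hpx. Each was chosen by name, and each was measured by the single probe set whose annotation lists that symbol and no other. Ftl1 is also listed on 4 probe sets that carry several symbols, which were not used. Fth1 and Ftl1 have many near-identical processed copies in the mouse genome, so that their signals may be shared with those copies.

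Iron enters cells mostly bound to transferrin, which its receptor carries into endosomes, where Slc11a2 (DMT1) moves the metal into the cytosol. Ferritin, a shell of heavy (Fth1) and light (Ftl1) chains, stores what is not used, and Slc40a1 (ferroportin) exports iron that Cp (ceruloplasmin) or Heph (hephaestin) then oxidizes so that transferrin can take it up. In the retina, loss of both ferroxidases leads to iron overload and degeneration, and free iron turns peroxide into reactive radicals. Lcn2 (lipocalin 2) and Hpx (hemopexin), both known as acute phase proteins, bind iron-loaded siderophores and free haem.

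RNA came from whole C57BL/6J mouse retinas that were cut into a superior and an inferior part. Exposed mice breathed 75% oxygen without interruption for 14 days, starting at postnatal day 83 to 90, and control mice stayed in normoxia until the same age. All mice lived in dim cyclic light of 5 lux, with 12 h of light and 12 h of dark, and each sample pooled 2 animals, 1 male and 1 female. The comparisons ask how hyperoxia changes expression in the inferior retina, which is the more vulnerable to it, and in the superior retina.

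The 4 groups, control superior, control inferior, hyperoxia superior and hyperoxia inferior, held 2 arrays each, and nothing in the labels says that the samples of a group were separate pools. The p-values therefore reflect nothing beyond the spread between these samples, which may be technical, and their precision is limited by the number of arrays. All values are log2 signals as deposited, on 28853 probe sets, with array medians between 6.98 and 7.05. The region labels were checked with Tbx5, a superior retina gene, which was lower in the inferior region by -1.06 in controls (adjusted p = 0.0731, limma) and -1.32 after hyperoxia (adjusted p = 0.00649). The inferior gene Vax2 was higher there by 0.88 (adjusted p = 0.848) and 1.43 (adjusted p = 0.0335). The summed log2 signal of 10 measured rod markers was 15.89 and 16.10 in the hyperoxia inferior samples and 16.12 to 16.19 in the other 6. After hyperoxia the rod markers had a median change of -0.18 in the inferior retina. Of the 10, 7 were lower without overlap, where 38.7% of all probe sets did not overlap in either direction. In limma 4 reached an unadjusted p under 0.05, against 9.39% of all probe sets, and 0 passed the adjusted test, against 0.492%. The control inferior replicate 2 array stood apart in lens genes, with a summed log2 signal of 15.49 for 13 lens markers against 10.11 to 11.66 on the other arrays.

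Promoter sequence is shown for Lcn2 and Cp, since these are the members that passed the test in a comparison of single groups. The Lcn2 stretch is the 250 bases before the start, on the minus strand at chr2:32387740-32387989, and the Cp stretch is 28 bases on the plus strand at chr3:19957169-19957196, both from RefSeq (GRCm38.p6). Capitals mark matches to the letters TTGCNNAA on either strand, the core of the sites that C/EBP factors of the acute phase response can bind.

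Lcn2: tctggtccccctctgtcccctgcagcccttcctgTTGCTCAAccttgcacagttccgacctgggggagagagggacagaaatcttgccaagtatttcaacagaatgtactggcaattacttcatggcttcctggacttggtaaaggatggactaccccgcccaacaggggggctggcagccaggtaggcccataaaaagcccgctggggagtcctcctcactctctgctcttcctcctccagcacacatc

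Cp: ttagttactcTTTTGCAAcattaaattg

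Counted from the start, the match began at base -216 in Lcn2 and at base -70 before the second of 2 listed starts in Cp. Windows of 250 bases before to 50 after a start were at hand for 6 members (9 windows), Cp, Fth1, Ftl1, Tfrc, Lcn2 and Hpx. The same letters were found in Hpx and Fth1, and in 10.797% of all 32851 windows. The other searched letters were TTCNNNGAA (STAT factors, in 8.298% of all windows), GGGNNTTCC (NF-kB, 5.82%), ACGTG (hypoxia response, 19.625%) and TGANNNNGC (antioxidant response, 41.341%). ACGTG was found in Tfrc, TGANNNNGC was found in Hpx, and the letters of STAT and NF-kB were in none of the 9 windows. These matches are descriptions of sequence and not evidence of binding.

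After hyperoxia, Lcn2 and Cp rose in the inferior retina, the only 2 of the 10 members to pass the adjusted test (limma, Benjamini-Hochberg over all probe sets). Over all probe sets 0.492% passed. An unadjusted p under 0.05 was reached by 4 members, Cp, Lcn2, Trf and Ftl1, all higher, where 9.39% of all probe sets reached it. The groups did not overlap for 7 members, 5 higher and 2 lower, against 38.7% of all probe sets. The median change of the 10 members was 0.08, and that of all probe sets was 0.0054.

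**Figure D1:**
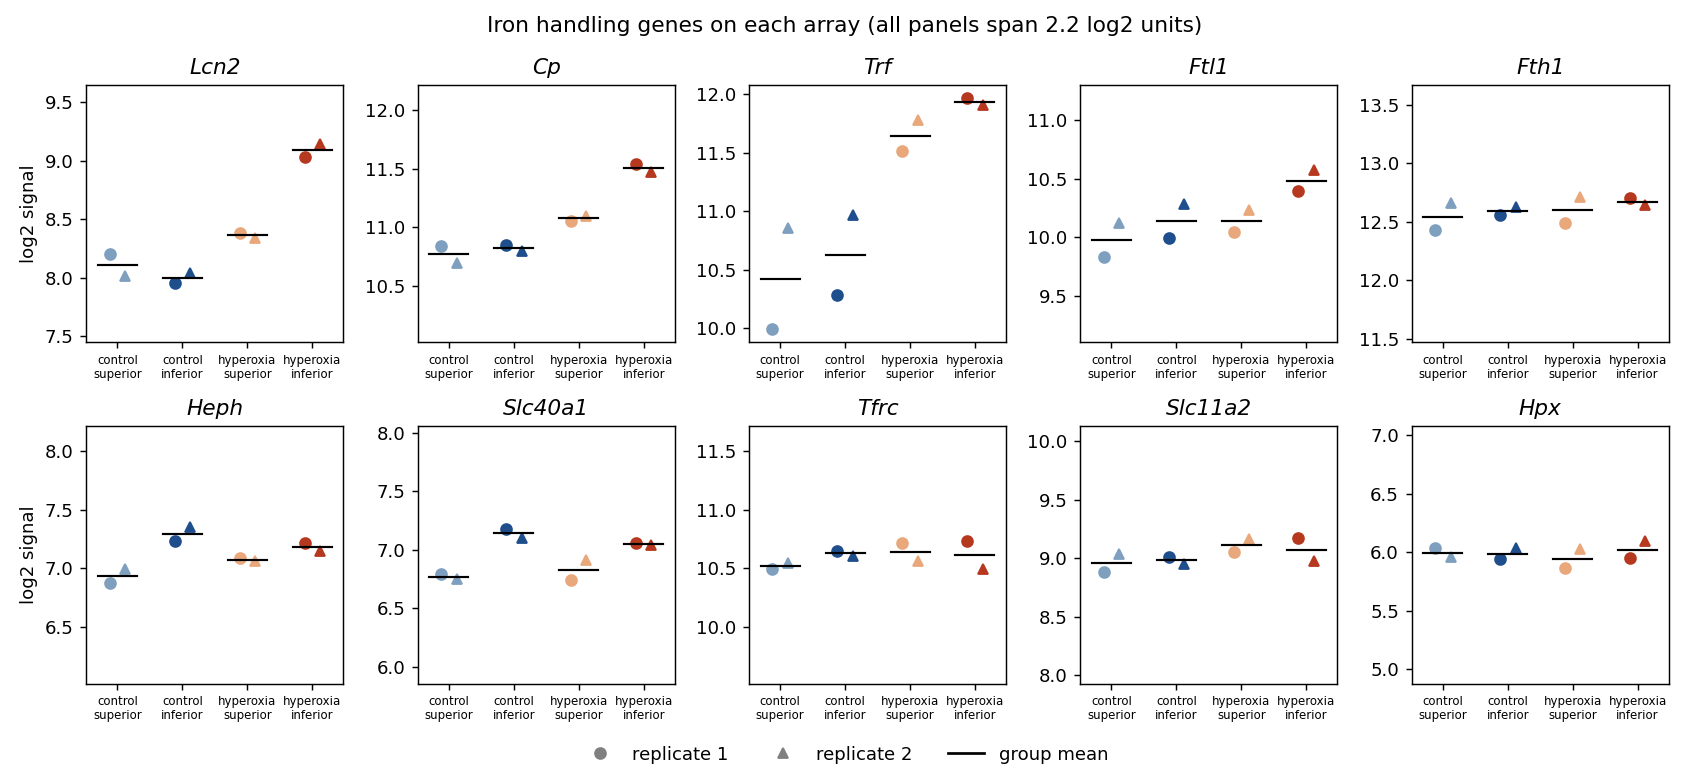
Log2 signal (vertical axis) of each iron handling gene on each of the 8 arrays, by group (horizontal axis); circles are replicate 1, triangles replicate 2 and bars the group mean. All panels span the same number of log2 units, so that sizes of change can be set side by side. Lcn2, Cp, Trf and Ftl1 stand highest in the hyperoxia inferior samples. Lcn2, Cp and Trf are higher in all 4 exposed samples than in all 4 controls, and Fth1, Tfrc, Slc11a2 and Hpx lie flat.

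Lcn2, which binds siderophores and so keeps iron from bacteria, gave log2 signals of 7.95 and 8.05 in the control inferior samples and of 9.04 and 9.15 in the hyperoxia inferior samples. In the superior retina the controls were at 8.21 and 8.01 and the exposed samples at 8.38 and 8.34. The hyperoxia inferior samples lay above the other 6 arrays, and in the superior retina the groups did not overlap either, but by a narrow gap. The rise in the inferior retina was 1.09 (SE 0.10, 95% interval 0.87 to 1.32), a fold ratio of hyperoxia over control of 2.13, with an adjusted p of 0.00241. It passed the test without any 1 of the 8 arrays, with an adjusted p of 0.00577 to 0.0467 and, without the array that stood apart in lens genes, a rise of 1.14 (adjusted p = 0.0141). Over all 20 alternatives the p ran from 0.000183 with a variance trend to 0.134 in the methods' t-test after adjustment, where the call was lost. In the superior retina the difference was 0.25 (SE 0.10, adjusted p = 0.863). Lcn2 is among the genes the study selected on these samples, so its direction here is not independent evidence.

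Cp, the copper-containing ferroxidase that retinal glia and other cells make, gave 10.84 and 10.80 in the control inferior samples against 11.54 and 11.47 in the hyperoxia inferior samples. The superior controls were at 10.84 and 10.69, and the exposed superior samples were at 11.06 and 11.10. All 4 exposed samples were thus above all 4 controls, with the inferior ones highest. The inferior rise was 0.69 (SE 0.09, 95% interval 0.48 to 0.89, adjusted p = 0.0188), a fold ratio of 1.61. The superior difference was 0.31 (SE 0.09, adjusted p = 0.723), with an unadjusted p of 0.00803. The inferior call of Cp rested on all 4 inferior arrays: the adjusted p was 0.0591 and 0.0831 without replicates 1 and 2 of the control inferior group, and 0.111 and 0.114 without replicates 1 and 2 of the hyperoxia inferior group. Over all 20 alternatives the p ran from 0.00038 in the methods' t-test, unadjusted, to 0.163 in the same test adjusted, and the difference from 0.65 to 0.72.

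Heph, the membrane-bound ferroxidase, did not pass the adjusted test in any comparison. Its values were 7.23 and 7.35 in control inferior and 7.21 and 7.15 in hyperoxia inferior samples, and 6.87 and 6.99 in control superior and 7.08 and 7.06 in hyperoxia superior samples. The exposed samples were lower than controls in the inferior region and higher in the superior region, each by a small margin. The differences were -0.11 (SE 0.09, adjusted p = 0.757) and 0.14 (SE 0.09, adjusted p = 0.91). The test of the difference between them gave -0.25 (SE 0.13, adjusted p = 0.835).

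Trf, the plasma iron carrier that the retina and its pigment epithelium also make, showed the widest differences of the members and the widest spread. The control superior samples gave 9.99 and 10.86 and the control inferior samples 10.28 and 10.97. The exposed samples gave 11.51 and 11.78 in the superior and 11.97 and 11.91 in the inferior region. Every exposed sample was above every control, but in both control groups replicate 1 lay far below replicate 2. The difference was 1.31 in the inferior retina (SE 0.29, 95% interval 0.65 to 1.97, adjusted p = 0.134) and 1.22 in the superior retina (SE 0.29, 95% interval 0.56 to 1.88, adjusted p = 0.543). The fold ratios were 2.48 and 2.33, and neither difference passed the adjusted test. Without control superior replicate 1 the superior difference was 0.79, and without control inferior replicate 1 the inferior difference was 0.97. Without the array with lens signal, control inferior replicate 2, it was 1.65.

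Trf is also made by the retinal pigment epithelium, a layer that can stay attached when a retina is removed, and the markers of that layer varied between the arrays. The summed log2 signal of its 12 markers was 11.56 to 12.69 in control superior, 12.32 to 13.30 in control inferior, 13.32 to 13.43 in hyperoxia superior and 13.18 to 13.27 in hyperoxia inferior samples. None of the 12 passed the adjusted test in either region. An unadjusted p under 0.05 was reached by 9 in the superior retina, against 5.59% of all probe sets. In the inferior retina 1 reached it, against 9.39%. Their median change was 1.16 in the superior retina and -0.03 in the inferior, where 5 of 12 were above 0. The lowest array in these markers was control superior replicate 1, which was also the lowest in Trf. Control inferior replicate 2, in contrast, was above both hyperoxia inferior samples in the markers (13.30) and below both in Trf (10.97). A covariate was added as an alternative once the values were known. It was not the summed signal but the median over these markers of log2 signal minus its mean over all arrays. With it the Trf difference was 1.24 in the inferior retina (adjusted p = 0.0255) and 0.31 in the superior retina (adjusted p = 0.999). Over the alternatives the inferior p ran from 0.0255, with the covariate, to 0.511 in the methods' t-test after adjustment. The smallest superior p was 0.0387, in the methods' t-test before adjustment, and no adjusted superior p passed. The part of the pigment epithelium in the Trf values of the superior retina was not otherwise tested. For 9 measured markers of optic nerve oligodendrocytes the summed log2 signal was 9.69 to 9.77 in controls and 9.82 to 9.94 in exposed samples. Their median change was 0.10 in the inferior retina, with 7 of 9 above 0, and 0.07 in the superior, with 6 of 9. None passed the adjusted test in limma in either region. The part of these cells in the Trf values was not tested.

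Tfrc, the receptor that takes in loaded transferrin, stayed between 10.50 and 10.73 on all 8 arrays. Its groups overlapped in the inferior retina, where the difference was -0.02 (SE 0.11, 95% interval -0.26 to 0.23, adjusted p = 0.983). The superior difference was 0.12 (SE 0.11, adjusted p = 0.942). Slc11a2, the importer that works beside it, ranged from 8.89 to 9.17, with differences of 0.09 in the inferior retina (95% interval -0.15 to 0.33) and 0.15 in the superior retina (95% interval -0.09 to 0.39). Neither gene passed the test in any comparison.

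Neither ferritin chain passed the adjusted test, and the wider difference was in Ftl1. It gave 9.997 and 10.29 in control inferior and 10.39 and 10.57 in hyperoxia inferior samples, and 9.83, 10.12, 10.05 and 10.23 in the control and then the hyperoxia superior samples. The inferior groups did not overlap and the superior groups did. Its inferior difference was 0.34 (SE 0.14, 95% interval 0.02 to 0.66, unadjusted p = 0.0418, adjusted p = 0.503), and its superior difference 0.16 (SE 0.14, adjusted p = 0.942). Fth1 ranged from 12.43 to 12.71 over all arrays, with differences of 0.08 (95% interval -0.18 to 0.34) and 0.06 (95% interval -0.20 to 0.32). Whether the chains differ from each other was not tested. Ferritin is controlled mainly at translation, which RNA levels do not show.

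Slc40a1, the only known cellular iron exporter, gave 7.18 and 7.11 in control inferior and 7.06 and 7.05 in hyperoxia inferior samples. In the superior region it gave 6.79 and 6.75 in controls and 6.74 and 6.91 after hyperoxia. The difference after hyperoxia was -0.09 in the inferior retina (SE 0.09, adjusted p = 0.819) and 0.05 in the superior retina (SE 0.09, adjusted p = 0.976). Hpx, the scavenger of free haem, gave low signals, 5.86 to 6.09 on all arrays, and its differences were 0.04 and -0.05.

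In the superior retina no member passed the adjusted test, which 0.0173% of all probe sets passed. An unadjusted p under 0.05 in limma was reached by 3 members, Cp, Trf and Lcn2, against 5.59% of all probe sets, and the methods' t-test before adjustment called the same 3 and none after adjustment. The groups did not overlap for 6 members, all of them higher after hyperoxia, against 35.9% of all probe sets. The median of the members was 0.14 and that of all probe sets 0.0022.

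**Figure D2:**
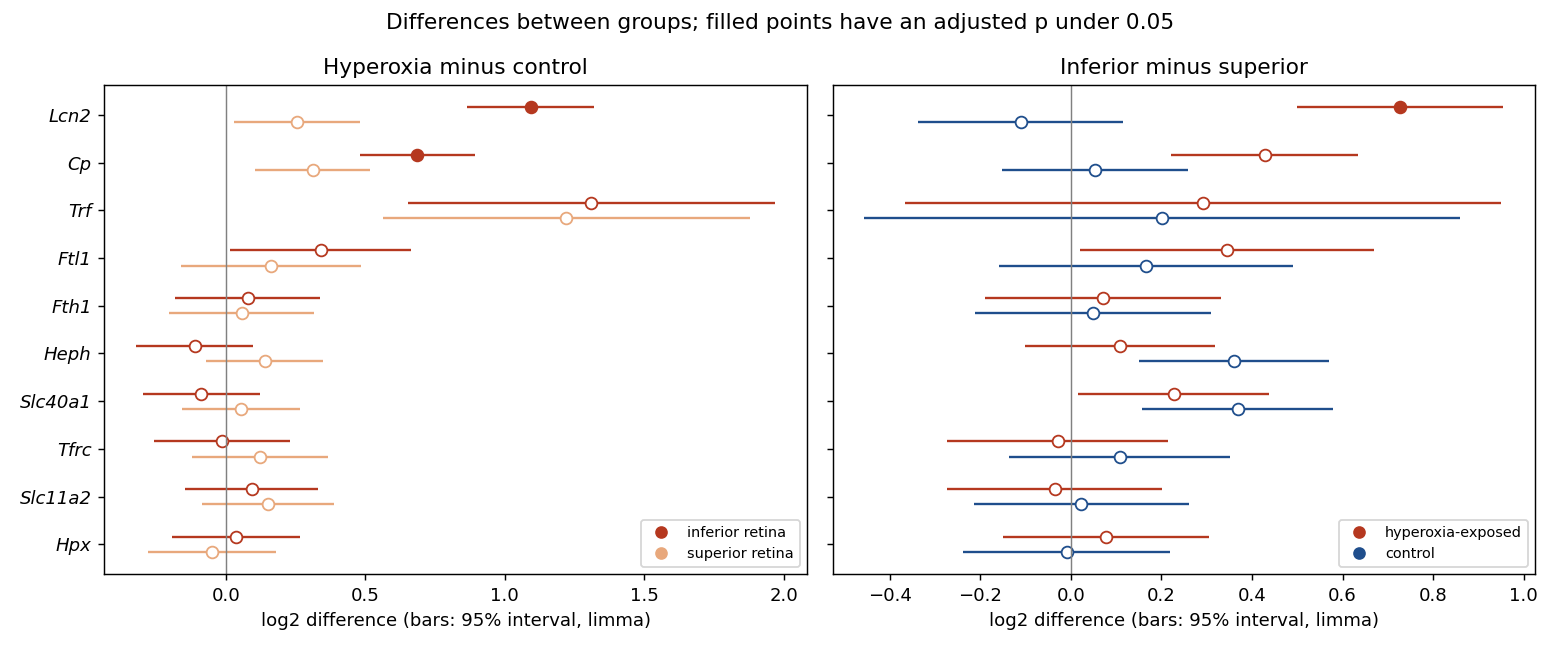
Differences in log2 signal (horizontal axes) of the 10 genes, hyperoxia minus control in each region on the left and inferior minus superior in each condition on the right. Bars are 95% intervals from limma, and filled points passed the adjusted test at 0.05: Lcn2 and Cp in the inferior retina on the left, and Lcn2 in the exposed retina on the right.

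Averaged over both regions, a comparison chosen after seeing the data, 3 members were called: Lcn2 at 0.67 (SE 0.07, adjusted p = 0.00556), Cp at 0.50 (SE 0.06, adjusted p = 0.015) and Trf at 1.27 (SE 0.20, adjusted p = 0.0417). Over all probe sets 0.568% passed. These mean changes pool the same arrays as the regional ones and are not further evidence. Lcn2 alone remained without any 1 of the 4 hyperoxia arrays. Cp was also lost without control superior replicate 2 (0.46, adjusted p = 0.0754), and Trf without control superior replicate 1 (1.05, adjusted p = 0.0879) or control inferior replicate 1 (1.09, adjusted p = 0.0631). Once the pigment epithelium covariate was added, the 3 missed the threshold, with Lcn2 at 0.69 (adjusted p = 0.0969), Cp at 0.57 (adjusted p = 0.0971) and Trf at 0.77 (adjusted p = 0.241). Over the alternatives the p ran from 0.000389 to 0.152 for Lcn2, from 0.000341 to 0.142 for Cp and from 0.0059 to 0.42 for Trf.

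Whether hyperoxia acted differently in the 2 regions was tested directly, as the inferior change minus the superior change. It was 0.84 for Lcn2 (SE 0.14, 95% interval 0.52 to 1.16, unadjusted p = 0.00027, adjusted p = 0.307) and 0.37 for Cp (SE 0.13, 95% interval 0.08 to 0.67, unadjusted p = 0.0178, adjusted p = 0.79). For Trf it was 0.09 with a 95% interval of -0.84 to 1.02. No member passed the adjusted test, and 0.00347% of all probe sets did. Lcn2 and Cp were the 2 members with an unadjusted p under 0.05 in limma, against 6.04% of all probe sets. The methods' t-test called the same 2 before adjustment and none after it. The inferior calls of Lcn2 and Cp are therefore not shown to be particular to that region.

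In the control retina, the ferroxidase Heph and the exporter Slc40a1 were the members with the widest regional differences, both higher in the inferior region. Heph was at 6.87 and 6.99 in the superior against 7.23 and 7.35 in the inferior samples, and Slc40a1 at 6.79 and 6.75 against 7.18 and 7.11. In both the groups did not overlap, by gaps wider than the spread within a group. The differences were 0.36 for Heph (SE 0.09, unadjusted p = 0.00386, adjusted p = 0.876) and 0.37 for Slc40a1 (SE 0.09, unadjusted p = 0.00354, adjusted p = 0.85). No member passed the adjusted test, and neither did any of the 28853 probe sets (0%). These 2 members reached an unadjusted p under 0.05 in limma, against 5.3% of all probe sets, and the methods' t-test called the same 2 before adjustment and none after it. Without control inferior replicate 2, the array with lens signal, the differences were 0.30 and 0.40. The groups did not overlap for 3 members, the other being Tfrc, against 34.2% of all probe sets. Trf differed by 0.20 (SE 0.29), Cp by 0.05 (SE 0.09) and Lcn2 by -0.11 (SE 0.10).

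In the exposed retina, Lcn2 in the inferior region exceeded that in the superior region by 0.73 (SE 0.10, 95% interval 0.50 to 0.95, adjusted p = 0.0456), a ratio of 1.66, and it was the 1 member called, where 0.139% of all probe sets were. This comparison uses the same hyperoxia inferior arrays as the comparison with controls. The call was lost without any 1 of the 8 arrays, with an adjusted p of 0.0655 without either control inferior array, 0.0783 without either control superior array, 0.17 and 0.348 without hyperoxia superior replicates 1 and 2, and 0.162 and 0.323 without hyperoxia inferior replicates 1 and 2. Over all 20 alternatives the p ran from 0.0011 to 0.42 and the difference from 0.67 to 0.78. An unadjusted p under 0.05 was reached by 4 members, against 8.5% of all probe sets. The others were Cp at 0.43 (SE 0.09, adjusted p = 0.208), Ftl1 at 0.34 (SE 0.14, adjusted p = 0.586) and Slc40a1 at 0.23 (SE 0.09, adjusted p = 0.586). The groups did not overlap for 6 members, all higher in the inferior region, against 38.5% of all probe sets.

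The list of other genes of iron and haem metabolism held 57 measured genes. In the inferior retina 1 of the 57 passed the adjusted test after hyperoxia, where 0.492% of all probe sets did. At an unadjusted p under 0.05 there were 4 higher and 1 lower, against 9.39% of all probe sets. Their median change was 0.01, with 30 of 57 above 0. In the superior retina 0 of 57 passed in limma, 3 were higher at an unadjusted p under 0.05, against 5.59% of all probe sets, and the median was 0.03. Between the exposed regions 1 of 57 passed, against 0.139% of all probe sets. At an unadjusted p under 0.05 in limma, 4 were higher and 0 lower in the inferior region there, against 8.5%. No gene of the list passed for the control regions or for the difference between the regional changes in limma. At an unadjusted p under 0.05 there were 0 and 3, against 5.3% and 6.04% of all probe sets.

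The gene called was Slc25a37 (mitoferrin-1), which carries iron into mitochondria. It gave 7.75 and 7.87 in control inferior and 9.12 and 9.06 in hyperoxia inferior samples, and 8.02 and 7.97 in control superior and 8.36 and 8.19 in hyperoxia superior samples. The hyperoxia inferior samples lay above all others, as with Lcn2. The inferior rise was 1.28 (SE 0.10, adjusted p = 0.00112), a fold ratio of 2.43. It passed without any 1 array and was lost in the methods' t-test after adjustment (0.114), over a range of 5.96e-05 to 0.114 in all alternatives. The superior difference was 0.28 (SE 0.10, adjusted p = 0.804), and the difference between the regional changes was 1.00 (SE 0.14, adjusted p = 0.285). In the exposed retina Slc25a37 was higher in the inferior region by 0.82 (adjusted p = 0.0268). That call was lost without control superior replicate 1 or 2 (adjusted p = 0.075 each), without hyperoxia superior replicate 2 (0.234) and without hyperoxia inferior replicate 1 (0.162) or 2 (0.214), over a range of 0.000506 to 0.382 in all alternatives. Slc25a37 too is among the genes that the study selected on these samples. The other 9 measured genes of mitochondrial iron and iron-sulphur clusters did not pass.

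Steap4, a metalloreductase known from inflamed tissue, had the next smallest p in the inferior retina. It gave 6.00 and 6.19 in controls and 6.83 and 7.17 after hyperoxia, a difference of 0.91 (SE 0.19, adjusted p = 0.106). Hmox1, the inducible haem oxygenase that frees iron from haem, gave 6.88 and 7.01 against 7.34 and 7.70, a difference of 0.58 (SE 0.13, adjusted p = 0.134). In both, the exposed inferior samples lay above the inferior controls without passing the adjusted test. The superior differences in limma were 0.31 for Steap4 (adjusted p = 0.906) and 0.10 for Hmox1 (adjusted p = 0.967). The differences between their regional changes were 0.60 (SE 0.27, adjusted p = 0.822) and 0.48 (SE 0.18, adjusted p = 0.793). In the superior retina the smallest p belonged to Steap1, another metalloreductase, at 0.47 (adjusted p = 0.523), and to Flvcr2, a membrane transporter of the FLVCR family, at 0.65 (adjusted p = 0.792). In the control retina they belonged to Lrp2 at 0.24 (adjusted p = 0.939) and Id1, a target of the signal that induces hepcidin, at 0.22 (adjusted p = 0.945).

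The remaining roles held no called gene in either region after hyperoxia. Among 8 measured genes of haem synthesis the inferior changes ran from -0.20 to 0.14 with a median of -0.05. The 3 iron regulatory proteins and sensor, Aco1, Ireb2 and Fbxl5, lay between -0.13 and 0.08. The 10 genes of hepcidin and its regulation had a median of 0.03, and the 4 genes of storage, release and iron chaperones one of -0.01.

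**Figure D3:**
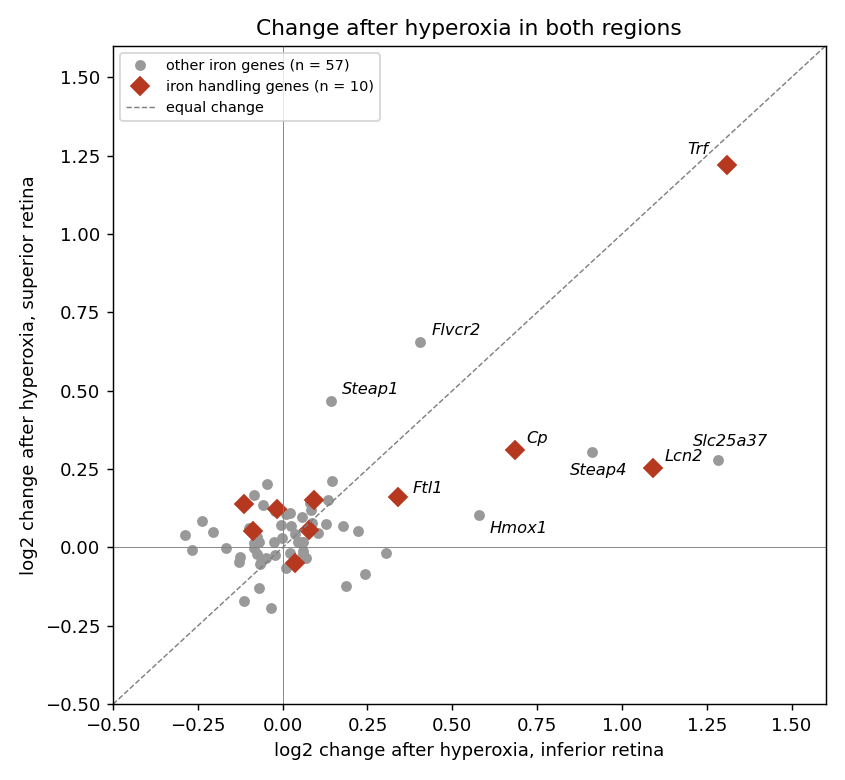
Change in log2 signal after hyperoxia for the 10 iron handling genes (red diamonds) and 57 other iron genes (grey circles), with the inferior region on the horizontal and the superior region on the vertical axis. Each point is 1 gene, and the dashed line marks equal change. Trf lies near the line at 1.31 and 1.22, and most genes lie near 0. Lcn2, Slc25a37, Steap4, Hmox1 and Cp lie well below the line, though none passed the adjusted test for the difference between the regional changes.

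Like Lcn2 and Cp, the markers of microglia and of reactive glia were highest in the hyperoxia inferior samples. Trf and Ftl1 were also highest in these samples, though neither passed the adjusted test in a comparison of single groups. The summed log2 signal of 15 microglia and macrophage markers was 10.82 to 10.90 in control superior, 10.98 to 11.00 in control inferior, 11.47 to 11.50 in hyperoxia superior and 12.49 to 12.66 in hyperoxia inferior samples. After hyperoxia 13 of 15 passed the adjusted test in the inferior retina and 1 of 15 in the superior, against 0.492% and 0.0173% of all probe sets. For 13 markers of reactive glia the sums were 12.24 to 12.35, 12.27 to 12.80, 12.75 to 12.98 and 13.43 to 13.60 in the same order, with 11 and 2 of 13 called. Both lists hold genes that the study chose on these samples. The largest inferior rise in the reactive glia list, 2.81, was also the largest rise of all probe sets. The study's strongest inferior change was in Edn2. It cites work that places raised Edn2 in photoreceptors, so that the list may not be purely glial. The 9 Muller cell markers, in contrast, had a median inferior change of -0.02, with 4 of 9 above 0. Past the adjusted test there, 1 was lower and 0 were higher. In the superior retina their median was -0.04, with 0 called. In such bulk tissue, fewer or more cells of a type cannot be told apart from less or more RNA per cell. The part of these cells in the changes of Lcn2 and Cp was not tested.

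Neutrophils store Lcn2 protein in their granules. Of 12 measured neutrophil markers 0 passed the adjusted test in limma in either region. The passing shares of all probe sets were 0.492% for the inferior region and 0.0173% for the superior one. At an unadjusted p under 0.05, 1 of 12 was lower after hyperoxia in the inferior region, against 9.39% of all probe sets. For the superior region 1 was higher and 1 lower, against 5.59%. The summed log2 signal of the 12 neutrophil markers lay between 8.60 and 8.72 on all 8 arrays. Of 10 erythrocyte markers 4 were measured, with sums of 7.77 to 8.07 on all arrays and none called. Averaged over its markers, each of these lists lay below the array medians of 6.98 to 7.05, and dim signals can understate changes. The part of neutrophils in the Lcn2 values was not tested.

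Over the 8 arrays, the genes whose centred log2 values lay nearest to those of Cp were Sulf1 (Euclidean distance 0.145), Aif1 (0.149), which marks microglia, and Hey2 (0.184), among 19937 genes compared. Those nearest to Lcn2 were Kremen1 (0.201), Myo10 (0.246) and Socs3 (0.250), a feedback inhibitor of cytokine signalling. These distances describe likeness over 8 arrays of 4 groups and carry no test.

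**Figure D4:**
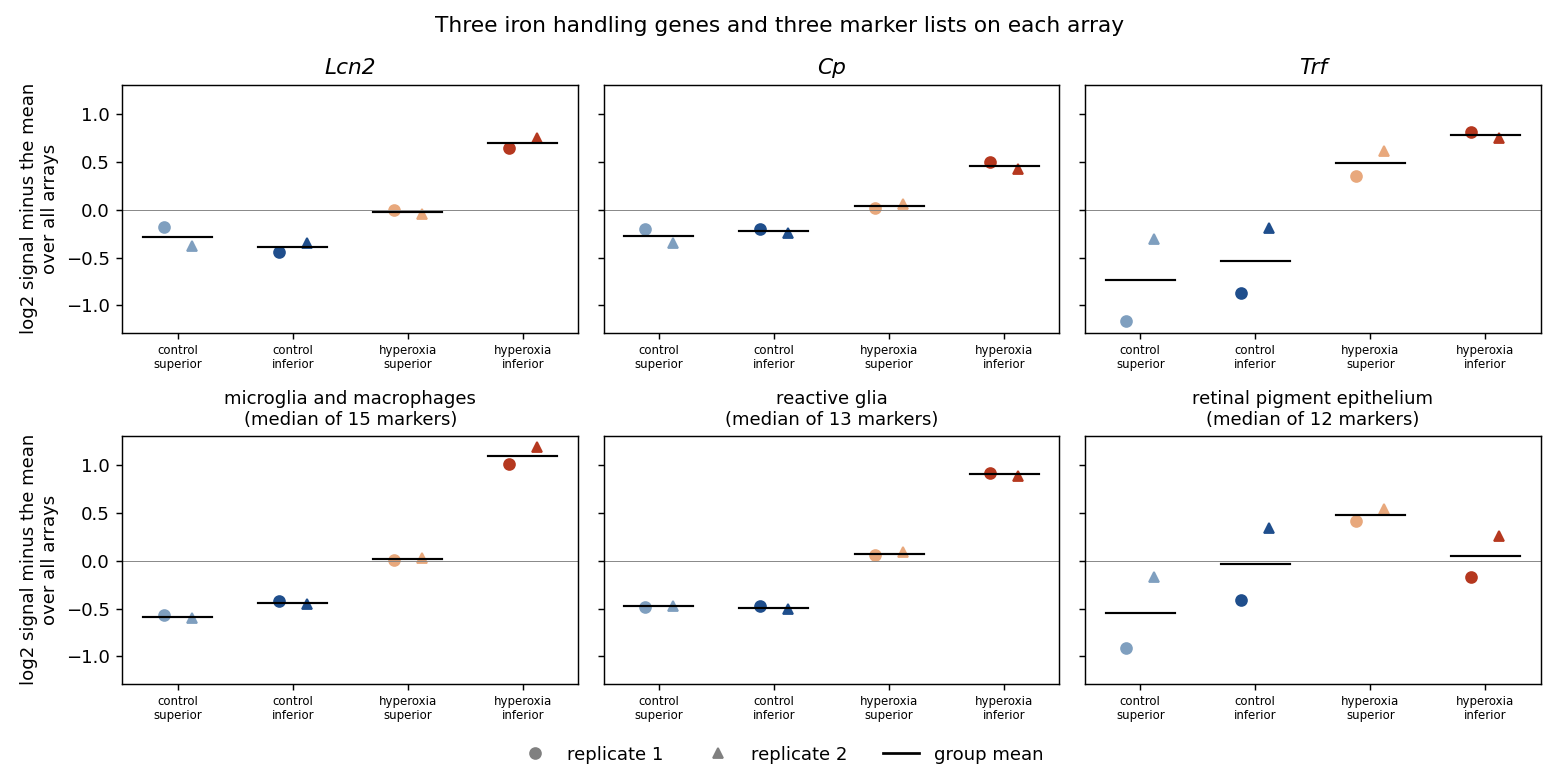
Log2 signal minus the mean over all 8 arrays (vertical axis) by group (horizontal axis) for Lcn2, Cp and Trf in the upper row and for the median of 3 marker lists in the lower row; circles are replicate 1, triangles replicate 2 and bars the group mean. Lcn2, Cp, Trf and the markers of microglia and reactive glia are highest in the hyperoxia inferior samples. Trf and the pigment epithelium markers are lowest in control superior replicate 1.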

How the data were processed

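Each of 8 Affymetrix Mouse Gene 1.0 ST arrays measured 1 pooled sample. The deposited values are log2 signals, for which the authors used Partek: RMA for the background, then median polish over probes. Versions are not given in the sources read, and no normalization was added. Of 28853 probe sets, 21789 list 1 gene symbol, 1621 several and 5443 none, and 21698 matched the GRCm38.p6 gene table, which changed 0 symbols. Genes were named from 1-symbol probe sets, the brightest standing for a gene.

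A model of 4 group means was fitted to all 8 arrays in limma 3.58.1 (R 4.3.3; 4 residual and 4.47 prior degrees of freedom). Benjamini-Hochberg adjustment covered every probe set, and an adjusted p under 0.05 counted as passing. The script was tested on simulated data. The methods' t-test is the unmoderated contrast of the same model. Alternatives covered normalization, filters, prior, block, samples and each array left out. Ranges of p over the alternatives include the unadjusted p of the methods' t-test. The iron handling genes and all lists were chosen with earlier results of these data known. Named were all 10 genes, other iron genes that were called or had the 2 smallest p of a comparison, and the 3 genes nearest to each called member.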

Additional observations from a re-analysis of the deposited data

How the results depend on the processing

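For 38 differences of Cp, Lcn2, Trf, Ftl1, Heph, Slc40a1, Slc25a37, Steap4 and Hmox1, 752 values were computed under the alternatives: 678 kept their direction and their side of the threshold, 47 lost a call, 18 gained one and 9 reversed. The members called in the inferior retina after hyperoxia were 2, against 3 (Cp, Trf and Lcn2) in the methods' t-test before adjustment, with a variance trend or with the pigment epithelium covariate, 0 in the methods' t-test after adjustment, 1 in a fit to only the arrays of the comparison, and 1 to 2 with 1 array left out. The methods' t-test before adjustment called 3 members in the superior retina, 2 between the control regions, 3 between the exposed regions and 2 for the difference of changes. The 1 member called between the exposed regions became 0 with quantile normalization, the adjusted t-test, the replicate block, only the arrays of the comparison or the pigment epithelium covariate, 2 with a variance trend, and 0 to 0 with 1 array left out. The 3 members called for the mean change became 0 with the adjusted t-test or the covariate, and 1 to 3 with 1 array left out.

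With the covariate, the superior change of Ftl1 was -0.25 and that of Hmox1 -0.050, and Trf between the control regions was -0.25. With 1 array left out, Trf between the control regions ran from -0.23 to 0.63, Cp there from -0.02 to 0.13, and the difference of changes of Trf from -0.34 to 0.52. Trf in the inferior retina passed with a variance trend (adjusted p = 0.0385, over a range of 0.0255 to 0.511). Fth1, Tfrc, Slc11a2 and Hpx passed in 0 of 391 values, which ran from -0.26 to 0.22 and changed sign in 30. The causes were not tested. The labels do not say whether same-numbered samples share animals, so that they were not treated as pairs. Only the superior and inferior samples of the same condition could share them. Their deviations correlated by 0.072 in controls and 0.104 in exposed samples, within -0.021 to 0.144 over all pairs of groups, which does not settle the question. With the replicate block, Lcn2 between the exposed regions had an adjusted p of 0.101 and Slc25a37 0.0529. The filter on a mean log2 under 6 left out Hpx. Each member has 1 probe set, so that averaging probe sets changes no value. With 1 array left out, the lone array of its group is assumed to vary like the others. Dim signals such as those of Hpx can understate changes.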
